A study of Homo sapiens with 6 samples.

Results

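The genes described here are TMCO1 and the set that moves calcium into and out of the endoplasmic reticulum (ER), a list of 10 genes made of TMCO1, the pumps ATP2A2 and ATP2A3, the release channels ITPR1, ITPR2 and ITPR3, the calcium sensors STIM1 and STIM2, the entry channel ORAI1 and the regulator SARAF. Members were selected by name, and a member was measured where the array annotation gave a transcript to that gene alone. Of the 10 genes 9 were measured, out of 14232 genes measured in this way. ITPR2 was not, because its transcript is annotated to a second gene too. TMCO1 entered the list because of its difference between these groups, so its difference is described and not tested.

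Total RNA was taken from MDA-MB-231 cells, an established human line of mesenchymal, triple-negative breast cancer, 48 hours after lipid-mediated transfection with either a control siRNA (siCon, 3 arrays) or an siRNA against HMGA1 (siHMGA1, 3 arrays). Titles and a sample characteristic call the second group shHMGA1, whereas the source names and the study's methods name siRNA, and that name is used here. All cells were grown in DMEM with 10% FBS. The replicates are described as independent experiments, and each group is 1 cell line with 1 agent at 1 time. The values are log2 expression per transcript on Affymetrix Human Exon 1.0 ST arrays, in which probes lie along the exons of a gene. In bulk RNA of this kind, fewer cells of a type and less RNA per cell cannot be told apart.

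The arrays were close to each other, with medians from 8.28 to 8.38 and correlations over transcripts from 0.982 to 0.995. HMGA1 itself, read from a transcript annotated also to the pseudogene HMGA1P8, was at 10.11, 10.25 and 10.35 with control siRNA and at 9.81, 9.65 and 9.76 with HMGA1 siRNA, so the groups did not overlap. The mesenchymal markers VIM, CD44, EGFR, CAV1 and AXL lay between the 95.2 and 99.8 percentile of each array. ESR1 and PGR, the hormone receptors absent from triple-negative tumors, lay between 6.59 and 26.2, the luminal factors FOXA1 and GATA3 in the middle of the arrays between 45.8 and 60.1, and the leukocyte marker PTPRC between 2.94 and 3.73. CDH1, which encodes E-cadherin, ranged from 30.7 to 69.9 between arrays.

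The ER is the main calcium store of the cell. SERCA pumps fill it from the cytosol, inositol trisphosphate receptors release calcium from it on a signal, and STIM proteins sense the calcium left in its lumen and open ORAI channels of the plasma membrane when the store is low, a process known as store-operated calcium entry. TMCO1 is a small membrane protein of the ER. It has been described as a channel that lets calcium out when the store is overfilled, and also as a member of the Oxa1 family of membrane insertases that works beside the SEC61 channel as new membrane proteins are made.

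The stretch just before the start of TMCO1 is shown because this gene carried the widest difference among the members, and because HMGA1 is a chromatin protein that binds DNA rich in A and T. It comes from RefSeq (GRCh38.p14, chr1:165768923-165769172, minus strand) and is written 5′ to 3′ as the gene reads, up to the base before the first listed start. The capitals mark both copies of CCAAT and the palindrome CTCGCGAG.
TMCO1: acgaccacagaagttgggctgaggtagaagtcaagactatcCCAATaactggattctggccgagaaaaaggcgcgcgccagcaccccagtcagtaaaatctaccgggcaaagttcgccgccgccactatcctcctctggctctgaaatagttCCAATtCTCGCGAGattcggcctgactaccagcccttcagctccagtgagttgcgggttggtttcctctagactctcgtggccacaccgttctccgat

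The CCAAT copies begin 209 and 98 bases before the start, and the palindrome, which reads the same on both strands, begins 92 bases before it. Motifs were searched on both strands of the 250 bases before the start in the promoter table, which held 27305 promoters and matched 6 of the 10 members. CTCGCGAG was found in 0.916% of all promoters and, among the 6, in that of TMCO1 alone. CCAAT was found in 33% of promoters and in those of TMCO1 and STIM2. GGGCGG was found in 42.3% of promoters and in those of ITPR3, STIM1 and STIM2, and TATAAA in 11.1% and in none of the 6. The pair CCAAT and CCACG with 9 bases between them, an arrangement known from genes of the ER stress response, were in 0.0806% of promoters and in none of the 6. The bases before TMCO1 were 45.2% A and T, where the median promoter has 42.0%, and the longest run of A and T was 6 bases, as in the median promoter. ATP2A2 had the same share, 45.2%, and a longest run of 15 bases, a length reached in 4.86% of promoters. The other matched members were at 35.2% (ITPR1), 24.8% (STIM2), 23.2% (ITPR3) and 22.8% (STIM1). These matches describe the letters and were not tested as sites of binding.

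TMCO1 was at 10.75, 10.76 and 11.09 on the control siRNA arrays and at 11.77, 12.04 and 11.91 on the HMGA1 siRNA arrays. The 3 HMGA1 siRNA arrays were high and the groups were far apart, since the lowest of them lay 0.68 (log2) above the highest control array, 1.6-fold in the measured level. Within groups the arrays spanned 0.34 with control siRNA and 0.27 with HMGA1 siRNA. The difference between the group means was 1.04 on the log2 scale (standard error 0.13, 95% interval 0.74 to 1.34), which is 2.06-fold, with an interval of 1.67 to 2.54-fold. Over all transcripts, 4 had a larger positive difference, and each of these overlapped between the groups and is annotated to several genes or to none here. A difference of 2-fold or more in either direction was found in 13 transcripts, 0.0591% of the 22011 tested. These values are what brought TMCO1 into the list, so the interval is a description and takes no account of that choice.

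**Figure D1:**
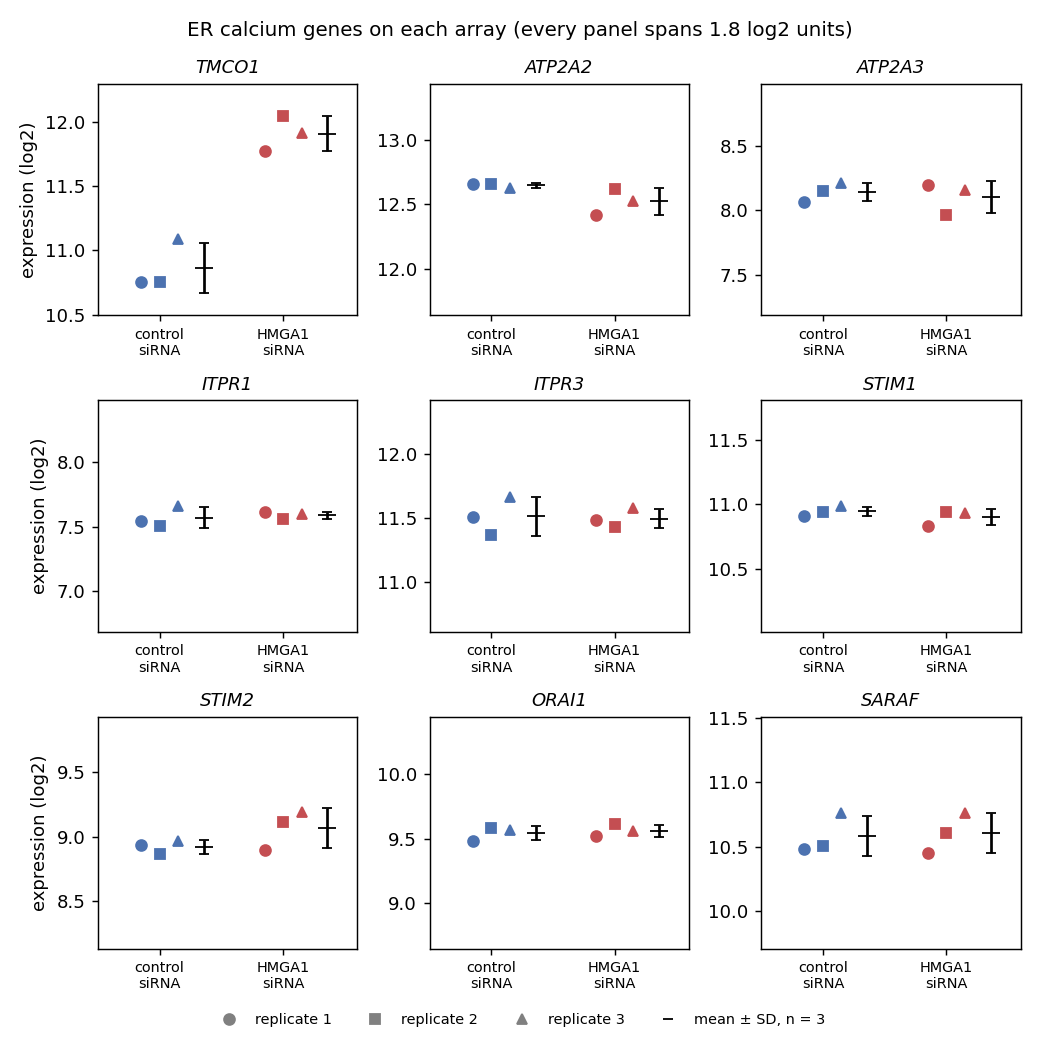
Expression (log2) of the 9 measured genes on the 6 arrays, 1 panel per gene, with control siRNA in blue and HMGA1 siRNA in red, the marker shape giving the replicate number, and the black bar with whiskers the mean and SD of 3 arrays. Every panel spans the same number of log2 units. The TMCO1 groups stand 0.68 apart at their nearest arrays, and the groups of every other gene overlap apart from those of ATP2A2, which all but touch.

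The SERCA pumps return calcium from the cytosol to the ER. ATP2A2, which encodes SERCA2, the pump found in most tissues, was at 12.66, 12.66 and 12.63 with control siRNA and at 12.42, 12.62 and 12.53 with HMGA1 siRNA. The HMGA1 siRNA arrays were lower and the groups did not overlap, although HMGA1 siRNA replicate 2 lay within 0.01 of control replicate 3. The log2 fold change was -0.13 (standard error 0.09, 95% interval -0.34 to 0.09), and it did not pass the test (adjusted p = 1.00 from limma over all transcripts). ATP2A3, which encodes SERCA3, was at 8.07, 8.15 and 8.21 with control siRNA and at 8.20, 7.96 and 8.16 with HMGA1 siRNA. These groups overlapped, and the log2 fold change was -0.037 (95% interval -0.27 to 0.20, adjusted p = 1.00). ATP2A2 was thus the 1 gene among the 8 members other than TMCO1 whose groups did not overlap. Over all transcripts this was the case in 7.79%, with 3.51% lower and 4.28% higher.

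Of the release channels, ITPR1 and ITPR3 encode inositol trisphosphate receptors of types that open in response to the same messenger. ITPR1 was at 7.54, 7.50 and 7.66 with control siRNA and at 7.61, 7.56 and 7.60 with HMGA1 siRNA. All HMGA1 siRNA values fell inside the control range, and the log2 fold change was 0.019 (95% interval -0.19 to 0.23, adjusted p = 1.00 from limma). ITPR3 was at 11.51, 11.37 and 11.67 with control siRNA and at 11.48, 11.43 and 11.58 with HMGA1 siRNA. Here too the HMGA1 siRNA arrays fell inside the control range, with a log2 fold change of -0.018 (95% interval -0.27 to 0.23, adjusted p = 1.00). In both groups the array labelled replicate 3 was the highest for ITPR3.

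STIM1 and STIM2 span the ER membrane and carry the calcium-sensing domain in the lumen. STIM1 was at 10.91, 10.94 and 10.98 with control siRNA and at 10.83, 10.94 and 10.93 with HMGA1 siRNA, overlapping groups with a log2 fold change of -0.043 (95% interval -0.24 to 0.16, adjusted p = 1.00 from limma). STIM2, which senses smaller falls in store calcium than STIM1, was at 8.93, 8.86 and 8.96 with control siRNA and at 8.90, 9.11 and 9.20 with HMGA1 siRNA. Replicates 2 and 3 of HMGA1 siRNA lay above every control array and replicate 1 lay among them. The log2 fold change of STIM2 was 0.15 (standard error 0.11, 95% interval -0.10 to 0.40), which was the highest after TMCO1 among the members and did not pass the test (adjusted p = 1.00).

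ORAI1 encodes the pore that STIM proteins open in the plasma membrane. It was at 9.48, 9.58 and 9.56 with control siRNA and at 9.52, 9.61 and 9.56 with HMGA1 siRNA, overlapping groups with a log2 fold change of 0.019 (95% interval -0.18 to 0.22, adjusted p = 1.00 from limma). SARAF, an ER membrane protein that turns store-operated entry down, was at 10.48, 10.51 and 10.76 with control siRNA and at 10.45, 10.60 and 10.76 with HMGA1 siRNA. The replicate 3 arrays were the high ones in both groups, and the log2 fold change was 0.022 (95% interval -0.26 to 0.31, adjusted p = 1.00). The sign for ORAI1, SARAF and ITPR3 turned under another scaling of the arrays, so no direction is given for them.

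Set beside TMCO1, the 8 other measured members stayed within a narrow band. Each of their intervals held 0, and together the intervals ran from -0.34 (ATP2A2) to 0.40 (STIM2), or from 0.789-fold to 1.32-fold. No test of TMCO1 against them is given, since it was chosen for its difference. Across all 6 arrays TMCO1 spanned 1.29 on the log2 scale, whereas the other members spanned 0.13 (ORAI1) to 0.33 (STIM2). Without TMCO1 the members had a median log2 fold change of 0.00038, where the median of all transcripts was -0.012. In limma 0 of these 8 members passed an adjusted p of 0.05, as did 0% of the 22011 transcripts. At an unadjusted p under 0.05 there were 728 transcripts, 3.31%, and 0 of the 8.

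**Figure D2:**
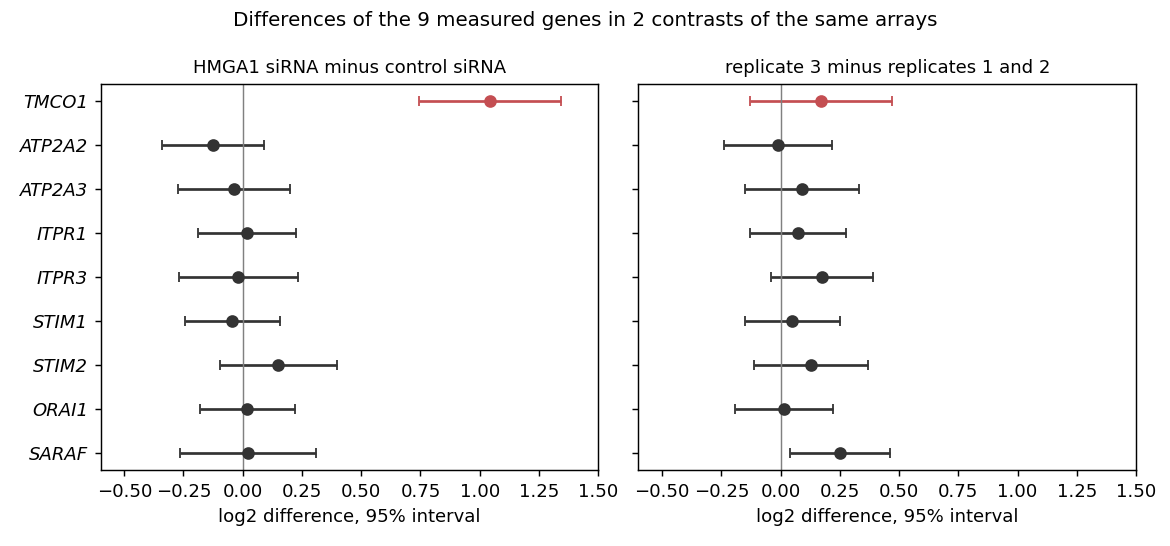
Differences in log2 expression with 95% intervals from limma for the 9 measured genes, on the left HMGA1 siRNA minus control siRNA and on the right the arrays labelled replicate 3 minus those labelled 1 and 2. TMCO1 (red) is at 1.04 on the left with the other genes between -0.13 and 0.15, and on the right the highest is SARAF at 0.25. TMCO1 was chosen for its difference on the left, so its interval there is a description and no test.

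The arrays labelled replicate 3 were set against the others because earlier results of these data showed that both differ. The counts over all transcripts therefore describe that split and are no test of it. This contrast had no part in the choice of members. With the group as covariate, 103 transcripts, 0.468%, passed an adjusted p of 0.05 in limma. None of the 9 measured members passed it. SARAF had the largest difference, 0.25 (95% interval 0.041 to 0.46, adjusted p = 0.279 from limma), with both replicate 3 arrays above the other 4. ITPR3 followed at 0.17 (95% interval -0.042 to 0.39, adjusted p = 0.471), again with both replicate 3 arrays above the rest. At an unadjusted p under 0.05 there was 1 member, SARAF, beside 13.9% of transcripts. Groups of arrays that do not overlap in this way were found in 24.4% of all transcripts and in 2 of the 9 members. TMCO1 differed by 0.17 (95% interval -0.13 to 0.47, adjusted p = 0.638), and its replicate 3 arrays were the highest with control siRNA and the middle one with HMGA1 siRNA. In all, 8 of the 9 members were above 0 in this contrast, beside 57.2% of transcripts. The part that these arrays take in the values of SARAF and ITPR3 in each group was not tested.

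Further genes were read from 8 lists of calcium handling and 2 of membrane insertion, which with the members hold 124 genes, 97 of them measured. Of 71 measured calcium genes that were not members, 25 were above 0 and 46 below with HMGA1 siRNA, and the median log2 fold change was -0.024, beside -0.012 for all transcripts, of which 53.9% were below 0. The 17 genes found in the insertion lists alone had a median of 0.052, with 10 above 0 and 7 below. None of these 88 genes passed an adjusted p of 0.05 in limma. The groups did not overlap in 7 of them, all calcium genes, which is 9.86% of the 71 and 7.95% of the 88, beside 7.79% of all transcripts. Of the calcium genes 7 were among the dimmest transcripts (group 1 of 5 by mean level), where background can hide differences, namely PLN, SLN, RYR2, CASQ2, SLC8A1, SLC8A3 and TRPC6. The widest of the 88 differences were -0.27 for NFATC2, whose groups overlapped, and 0.22 for CALU. For NFATC2 the replicate 3 arrays differed more from the others, by -0.55, and both lay below all of them.

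**Figure D3:**
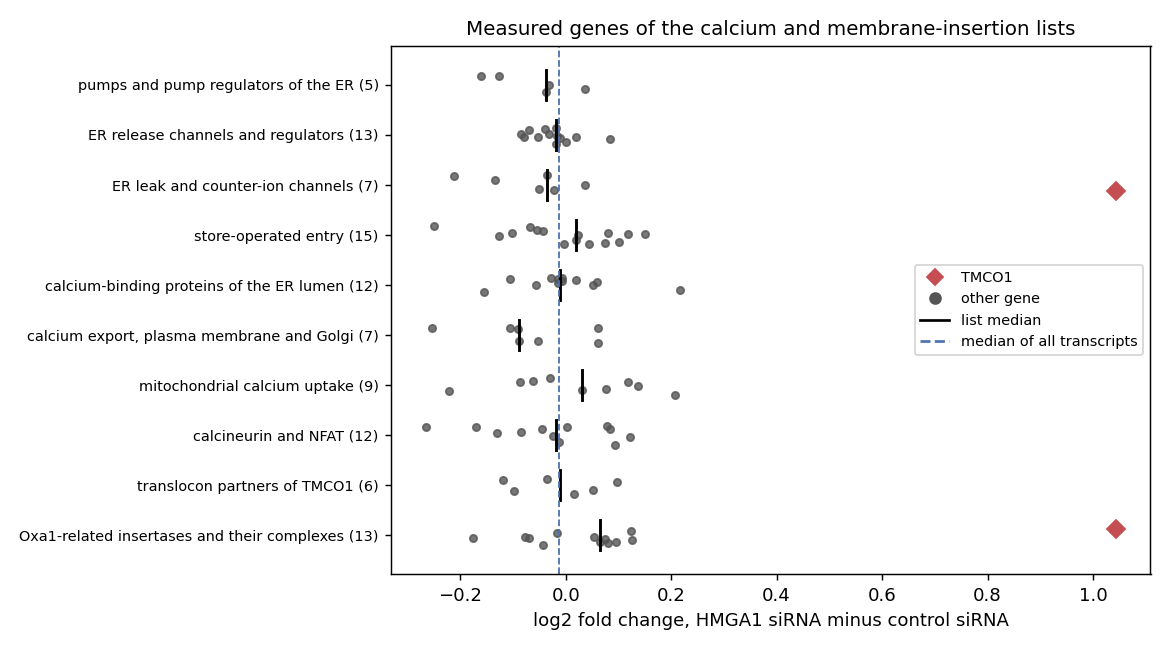
Log2 fold change (HMGA1 siRNA minus control siRNA) of each measured gene in the 10 lists, with the number of measured genes in brackets, a black tick for the list median and a dashed line for the median of all transcripts at -0.012. TMCO1 (red diamond), in 2 of the lists, is at 1.04, and all other genes lie between -0.27 and 0.22.

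Among 5 pumps and pump regulators of the ER, 4 were below 0, with a median of -0.037. Phospholamban (PLN) and sarcolipin (SLN), small inhibitors of SERCA known from muscle, had log2 fold changes of -0.16 and 0.037. The 13 measured release channels and their regulators had a median of -0.019 and ran from -0.085 (RYR2, a dim transcript) to 0.085 (HOMER3). RYR1 and RYR2 encode ryanodine receptors, the release channels of muscle, and RYR1 was at -0.079. The groups overlapped in all 13. The ER leak and counter-ion channels, 7 with TMCO1, had a median of -0.036. Also in that list, SEC61A2, an isoform of the translocation channel, at -0.21 and TMBIM6, an ER protein that lowers store calcium, at -0.13, were lower on all HMGA1 siRNA arrays, and the counter-ion channel TMEM38B was at 0.037.

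In the list of store-operated entry 15 genes were measured, 8 above 0 and 7 below it (median 0.019). ORAI3, a relative of ORAI1, was at 9.97, 10.02 and 10.21 with control siRNA and at 9.94, 9.65 and 9.86 with HMGA1 siRNA. Its groups did not overlap. The difference was -0.25 in log2 units (standard error 0.12), with an unadjusted p of 0.065 and an adjusted p of 1.00 in limma. The membrane tether ESYT2 was at 0.12 and the junctophilin JPH1 at -0.13. Calcium-binding proteins of the ER lumen had a median of -0.011 over 12 genes. CALU, which encodes calumenin, was at 12.06, 12.04 and 11.96 with control siRNA and at 12.14, 12.42 and 12.15 with HMGA1 siRNA. Its groups did not overlap either, and the difference was 0.22 in log2 units (standard error 0.11, adjusted p of 1.00 in limma). The chaperone calreticulin (CALR) was at 0.060, and the calsequestrins CASQ1 and CASQ2, storage proteins of muscle, at -0.15 and -0.11.

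The genes that carry calcium elsewhere gave similar values. Of 7 exporters of the plasma membrane and Golgi, 5 were below 0 (median -0.088), with the plasma membrane pump ATP2B1 at -0.088, the Golgi pump ATP2C1 at 0.061, and the sodium-calcium exchangers SLC8A1 at -0.25 and SLC8A3 at 0.060. In the list of mitochondrial calcium uptake (9 genes, median 0.032), LETM1, a carrier of the inner membrane, was at 9.44, 9.51 and 9.60 with control siRNA and at 9.33, 9.26 and 9.29 with HMGA1 siRNA. Its groups did not overlap, and its log2 fold change of -0.22 had an unadjusted p of 0.039 (adjusted p = 1.00 from limma), the 1 gene under 0.05 among the 88 (1.14%, beside 3.31% of all transcripts). In the same list the uniporter regulators MICU3 and MCUR1 were at 0.21 and 0.12 and the exchanger SLC8B1 at -0.086. The list of calcineurin and NFAT genes (12 genes, median -0.018) included NFAT5 at 0.093, NFATC3 at 0.12, NFATC2 at -0.27 and the calcineurin regulator RCAN2 at -0.17.

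TMCO1 was also compared with the proteins it works beside at the translocon. Of 13 partners listed 6 were measured, and of these 3 lay above 0 and 3 below it (median -0.010), with overlapping groups in every one. CCDC47, which binds nascent membrane proteins at the ribosome, was at 10.54, 10.59 and 10.38 with control siRNA and at 10.46, 10.86 and 10.48 with HMGA1 siRNA, which differ by 0.097 in log2 units (standard error 0.13). RAB5IF was at 0.052, and TMEM147 and NCLN at -0.12 and -0.097. Among 13 measured Oxa1-related insertases and subunits of their complexes, TMCO1 included, 8 lay above 0 and 5 below it (median 0.065). GET1 and EMC3, which like TMCO1 belong to the Oxa1 family, were at 0.094 and 0.054. They are named here for that relation, after their values had been seen. EMC6 and EMC7, subunits of the ER membrane protein complex, were at 0.13 and -0.076, and CAMLG, the partner of GET1, at -0.18. No gene of the list was called.

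Genes that lie beside TMCO1 on chromosome 1 were read in the order of the RefSeq table, taking the 5 nearest measured genes on each side. Of these 10 neighbours 4 were above 0 and 6 below, and none passed an adjusted p of 0.05 in limma. On the nearer places, the aldehyde dehydrogenase gene ALDH9A1 had a log2 fold change of 0.086 (95% interval -0.16 to 0.34), and UCK2, which encodes a uridine-cytidine kinase, of 0.028 (95% interval -0.28 to 0.34). POGK was at 9.96, 9.96 and 9.60 with control siRNA and at 9.58, 9.58 and 9.43 with HMGA1 siRNA. It differed by -0.31 in log2 units (standard error 0.13, 95% interval -0.60 to -0.018). In limma its unadjusted p was 0.040, beside 3.31% of all transcripts under 0.05, and its adjusted p was 1.00. POGK was the 1 neighbour of 10 whose groups did not overlap, beside 7.79% of all transcripts. Control replicate 3 lay close above the HMGA1 siRNA arrays. The others were at 0.074 (MGST3), 0.042 (TADA1), -0.019 (ILDR2), -0.042 (FMO9P), -0.071 (RXRG), -0.11 (LRRC52) and -0.19 (LMX1A).

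**Figure D4:**
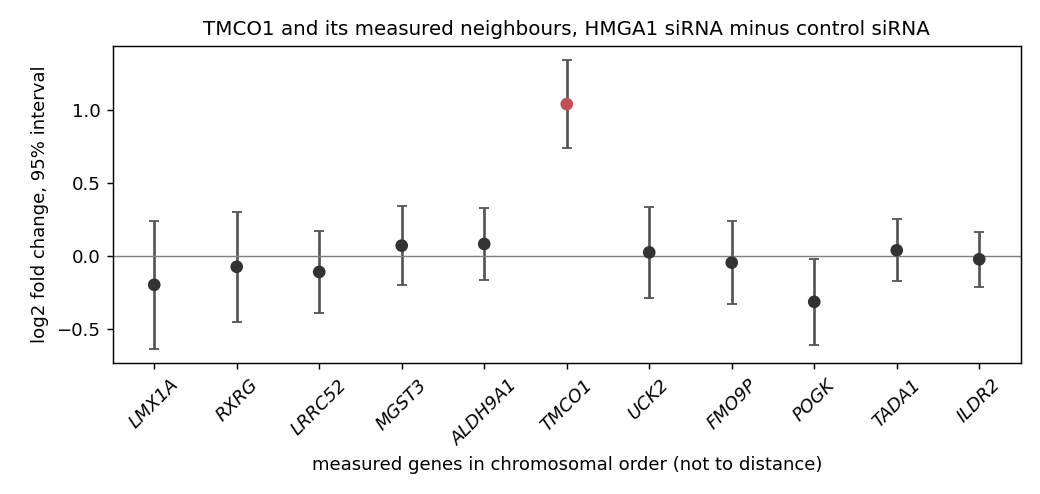
Log2 fold change (HMGA1 siRNA minus control siRNA) with 95% intervals from limma for TMCO1 (red) and the 5 nearest measured genes on each side, in chromosomal order and not drawn to distance. TMCO1 is at 1.04 and its neighbours lie between -0.31 and 0.086. The interval of TMCO1 describes a gene chosen for this difference and is no test.

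Over the 6 arrays the genes whose values followed TMCO1 most closely were RNF130 (Pearson r = 0.990), RPA2 (0.978), SEC24D (0.976), ADCY9 (0.975) and NRBP1 (0.972), and those most opposed to it were CNDP2 (-0.994), SEPTIN2 (-0.992) and ARL2BP (-0.988). These are descriptions over 14231 genes compared, of which 115 had a correlation above 0.9, and 6 arrays in 2 groups that share a treatment give little room for order among them. With each group centred on its own mean the correlations were 0.974 for RNF130, 0.581 for RPA2, 0.784 for SEC24D, 0.496 for ADCY9 and 0.504 for NRBP1, and -0.899, -0.861 and -0.833 for CNDP2, SEPTIN2 and ARL2BP. The values over 6 arrays thus include the group difference that brought TMCO1 into the list. RNF130 was at 9.56, 9.56 and 9.71 with control siRNA and at 9.84, 9.96 and 9.94 with HMGA1 siRNA, a difference of 0.31 on the log2 scale, and thus moved with TMCO1 over a smaller span. Among the members the correlation with TMCO1 was 0.719 for STIM2 and -0.621 for ATP2A2, and it lay between -0.271 (STIM1) and 0.357 (ORAI1) for the other 6. These values too include the group difference for which TMCO1 was chosen. They restate in part the log2 fold changes of the members, and no correlation within groups is given for them.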

How the data were processed

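Per the labels and the study's methods, the authors made the deposited log2 values with RMA in the oligo package. The submitters' processing notes also name hg18 and limma, without versions. All 6 arrays and 22011 transcripts were used without further scaling. The 14432 transcripts with 1 gene symbol were named from the platform annotation, updated through gene identifiers (14404 matched RefSeq), taking the brightest transcript per gene. Groups were compared with limma 3.58.1 in R 4.3.3 (lmFit and eBayes, two-sided, no covariate), and p-values were adjusted over the 22011 transcripts by Benjamini-Hochberg, called at 0.05. The replicate 3 contrast had the group as covariate. Residual background compresses the differences of dim transcripts, and 3 arrays per group limit the precision. Members and lists were chosen with earlier results of these data known. Text names all members, up to 2 genes per direction and list of smallest p, 5 neighbours per side, and the 5 most and 3 least correlated genes. Alternatives were median centring, quantile normalization, a filter on the dimmest 40%, a trended and robust prior, array weights, a replicate block, the mean over a gene's transcripts, each array left out and, for replicate 3, no group term. Steps were tested on simulated data. Figures were drawn with matplotlib 3.10.9.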

Additional observations from a re-analysis of the deposited data

How the results depend on the processing

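TMCO1 had a log2 fold change from 0.98 (without HMGA1 siRNA replicate 2) to 1.15 (without control siRNA replicate 3) over the 13 alternatives. Its direction could not turn when arrays were left out or weighted, since its groups do not overlap. The filter, the prior, the replicate block and the mean over transcripts leave its estimate unchanged by construction. The range is therefore a description. With array weights 198 transcripts passed an adjusted p of 0.05 in limma, with 1 member among them. This was TMCO1 (adjusted p = 0.00884, beside 0.262 in the reported fit and 0.674 with the replicate block), which is no test, since it was chosen on this contrast. In that fit HMGA1 siRNA replicate 3 had a weight of 6.80 and the other arrays 0.275 to 2.21. The 8 other members never passed, in 103 values over the alternatives. In 14 of these, over 5 genes, the sign turned. The settings that leave the TMCO1 estimate unchanged by construction do so for these genes too, and they could not turn a sign. After quantile normalization ORAI1 was at -0.0089 and SARAF at -0.0019, after median centring ITPR3 was at 0.00016, and with array weights ATP2A3 was at 0.018 and ITPR3 at 0.12. With 1 array left out the log2 fold change ran from -0.083 to 0.034 for ATP2A3, -0.014 to 0.065 for ITPR1, -0.093 to 0.058 for ITPR3, -0.013 to 0.041 for ORAI1 and -0.056 to 0.11 for SARAF. The other members kept their sign, with ranges of -0.18 to -0.073 for ATP2A2 (-0.073 without HMGA1 siRNA replicate 1), -0.063 to -0.0085 for STIM1 (-0.0085 without the same array) and 0.086 to 0.24 for STIM2 (0.086 without HMGA1 siRNA replicate 3, 0.24 without its replicate 1, and 0.28 with array weights). Leaving 1 array out could not turn the sign of ATP2A2, since its groups did not overlap. ITPR1 was among the dimmest 40% and has no value without them. For the replicate 3 arrays, 407 transcripts passed without the dimmest 40%, 371 with a trended and robust prior and 164 without a group term, in place of 103, and 0 members in each.

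The replicate numbers were not taken to pair the arrays in the reported fit. Deviations from the group means correlated at -0.201, 0.255 and 0.533 for numbers 1, 2 and 3. Control replicate 1 correlated best with HMGA1 siRNA replicate 2 (0.419). Control replicates 2 and 3 each correlated best with the HMGA1 siRNA array of their own number, so the numbers matched in part. With the replicate block 0 transcripts passed, as without it, and the TMCO1 difference of 1.04 had a standard error of 0.12.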
